A study of Mus musculus with 18 samples.

Results

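Oligodendrocytes wrap the axons of the cerebellar white matter in myelin, a membrane sheath that is unusually rich in galactolipids and cholesterol. Their identity is held by transcription factors such as Sox10, Olig2 and Myrf, which switch on the enzymes that build galactosylceramide and sulfatide and the proteins that hold the sheath together. Myelin proteins are long-lived and their messenger RNAs abundant, while neuregulin signalling through receptors such as Erbb3 regulates the cells that make them. The genes described here are 31 genes of oligodendrocytes and myelin, listed by name. A gene was taken where the platform's symbol matched, with 1 probe set per gene, the one with the highest mean over all arrays. This gave 29 genes with a probe set of 1 symbol, of which 28 passed the filter on dim probe sets, among 8320 genes that passed it and 12393 genes in all. Ermn and Nfasc were not matched to a probe set of 1 symbol and were not analysed here, and Nkx6-2 did not pass the filter.

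RNA of the cerebellum of adult male mice aged 80 ± 5 days was measured on 18 Affymetrix 3′ expression arrays in 6 groups of 3. The transgenic mice (TG) carried human ApoD, over-expressed in neurons per the series' design text, the knock-out mice (KO) lacked ApoD, a lipid-binding lipocalin, and the third genotype was wild-type (WT). In each genotype 9 mice received 1 intraperitoneal injection of paraquat, a herbicide that produces superoxide by redox cycling, at 30 mg/kg in 200 µl of saline. Another 9 received saline alone, and all were killed 6 h later. Titles that do not name paraquat were read as saline from the protocol. Each array carried a pool of RNA from 3 mice, so error terms here measure how pools differ, not single mice. Levels are log2 values, and a level is not compared between genes, since each gene has its own probes.

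The labels were checked against the arrays before any comparison. ApoD's own probe set stood at 8.40, 8.22 and 8.503 in KO saline and 9.63, 9.83 and 9.16 in KO paraquat, against 12.13 to 12.76 in the other 12 arrays. This is a mouse probe set, so it does not check the human transgene. Replicate 2 of KO paraquat stood apart, with a median of 6.98 against 7.103 to 7.15 on the others and a mean correlation with them of 0.971 against 0.986 to 0.993. Replicate 3 of TG paraquat went against its label: Fkbp5 and Plin4 were higher on every KO and WT paraquat array than on any saline array. Fkbp5 had 9.19, 8.93 and 7.86 in TG paraquat against 7.74, 8.27 and 7.91 in TG saline, and Plin4 had 8.80, 8.36 and 6.25 against 5.91, 6.79 and 6.69, so that replicate 3 of TG paraquat lay at the saline level. Both arrays were kept, and values without them are given beside the main results that they move. Of the oligodendrocyte genes 25 of 29 reached the array's 40th percentile on all 18 arrays, and Mbp, the myelin basic protein, lay between 14.08 and 14.46 everywhere. In whole tissue, fewer oligodendrocytes and less RNA per oligodendrocyte cannot be told apart.

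The stretches of DNA just before the start of several members are shown because the members that fell with paraquat and those that did not can be compared in sequence. RefSeq's promoter table on GRCm38.p6 held 20 of the 28 genes, among them 7 of the 12 that fell with paraquat over the 3 genotypes. Capitals mark ACAAAG or ACAATG, which Sox proteins bind, CTGGTAC or CTGGCAC, which Myrf binds, and AGAACA, part of the element bound by the glucocorticoid receptor, each on either strand. The 150 bases before the first listed start of each gene are given 5′ to 3′ on the gene's strand, first for Olig2, Ugt8a, Aspa and Pllp, which fell, then for Mag and Mobp, which did not pass the test. These genes do not stand for the rest. Gal3st1 and Gjb1, which fell and are not shown, had a Sox match in the 250 bases before the start. Cldn11, Mal, Pmp22, Tspan2, Cntn2, Plekhb1, Qdpr and Gsn, which did not pass, had no match of any kind there.
Olig2: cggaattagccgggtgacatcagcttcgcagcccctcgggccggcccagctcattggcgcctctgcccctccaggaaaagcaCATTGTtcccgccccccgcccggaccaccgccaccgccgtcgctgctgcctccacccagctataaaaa
Ugt8a: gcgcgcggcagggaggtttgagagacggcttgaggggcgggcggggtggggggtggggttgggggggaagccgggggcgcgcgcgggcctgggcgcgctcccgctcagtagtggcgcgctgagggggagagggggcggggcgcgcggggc
Aspa: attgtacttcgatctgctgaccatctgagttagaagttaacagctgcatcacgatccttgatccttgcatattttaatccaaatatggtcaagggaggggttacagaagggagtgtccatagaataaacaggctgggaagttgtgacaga
Pllp: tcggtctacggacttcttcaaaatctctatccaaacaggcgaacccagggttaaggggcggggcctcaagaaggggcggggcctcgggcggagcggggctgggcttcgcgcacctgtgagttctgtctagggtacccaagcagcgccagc
Mag: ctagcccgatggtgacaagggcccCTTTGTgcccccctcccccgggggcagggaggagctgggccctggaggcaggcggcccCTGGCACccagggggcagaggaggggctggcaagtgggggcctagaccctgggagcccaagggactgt
Mobp: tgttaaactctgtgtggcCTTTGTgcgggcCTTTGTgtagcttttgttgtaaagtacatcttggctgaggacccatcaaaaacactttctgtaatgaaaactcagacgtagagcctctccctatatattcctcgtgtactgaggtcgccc

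These stretches lie at chr16:91225400-91225549 (plus strand) for Olig2, chr3:125938653-125938802 (minus strand) for Ugt8a, chr11:73324638-73324787 (minus strand) for Aspa, chr8:94696243-94696392 (minus strand) for Pllp, chr7:30914864-30915013 (minus strand) for Mag and chr9:120149592-120149741 (plus strand) for Mobp. In the 250 bases before the start, a Sox match was found in 7 of 20 members (35.0%), against 25.5% of 27025 promoters. It was found in 3 of the 7 members that fell and in 4 of the 13 others. A Myrf match was found in 3 of 20 members (15%), against 5.86% of all promoters, and in none (0 of 7) of those that fell. The glucocorticoid receptor letters were found in 1 member, Gjb1, for which RefSeq lists 4 starts (5.0%), against 16.2% of all promoters. A match is a description of the letters and not a site, and no test was made of these shares.

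Paraquat against saline was first compared in the KO and WT cerebellum, which share no array. In KO the receptors Erbb3 and Gpr37, the lipid enzyme Aspa, the membrane protein Pllp and the carbonic anhydrase Car2 fell, and in WT the transcription factor Sox10 and Car2. The major myelin proteins Mbp, Mog, Mag, Mobp, Cnp and Mal did not pass the test in either genotype. In KO, 5 of 28 members passed at adjusted p under 0.05 (limma, Benjamini-Hochberg over all genes), all lower, against 1.47% of all genes lower and 0.793% higher. In WT, 2 of 28 passed, both lower, against 0.469% of all genes lower and 1.53% higher. The median log2 fold change in KO was -0.27 for the members, against -0.09 over all genes. In WT it was -0.09 for the members, against 0.02 over all genes. Without replicate 2 of KO paraquat, 3 members fell in KO (Sox10, Erbb3 and Car2), against 0.649% of all genes, with a members' median of -0.18 against 0.01 over all genes. The WT count also depended on the arrays that share the spread: 7 members fell in WT with both doubtful arrays left out, against 1.73% of all genes, and 11 with only the WT arrays in the fit, against 3.7%. With only the KO arrays in the fit 1 member, Car2, fell in KO, against 0.12% of all genes, and Aspa, Pllp, Erbb3 and Gpr37 did not pass.

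All 3 paraquat arrays lay below all 3 saline arrays for 16 of 28 members in KO, against 17.7% of all genes, and above them for 0, against 4.99% of all genes. In WT they lay below for 14 members, against 11.8% of all genes, and above for 4, against 16.6%. Below in KO and also below in WT were 13 of 28 members, against 6.62% of all genes. These were the 12 genes that fell over the mean of the genotypes and Qdpr, the dihydropteridine reductase. With 3 arrays against 3 an exact permutation test of 1 gene cannot go below 0.1, so calls rest on the model across all genes.

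**Figure D1:**
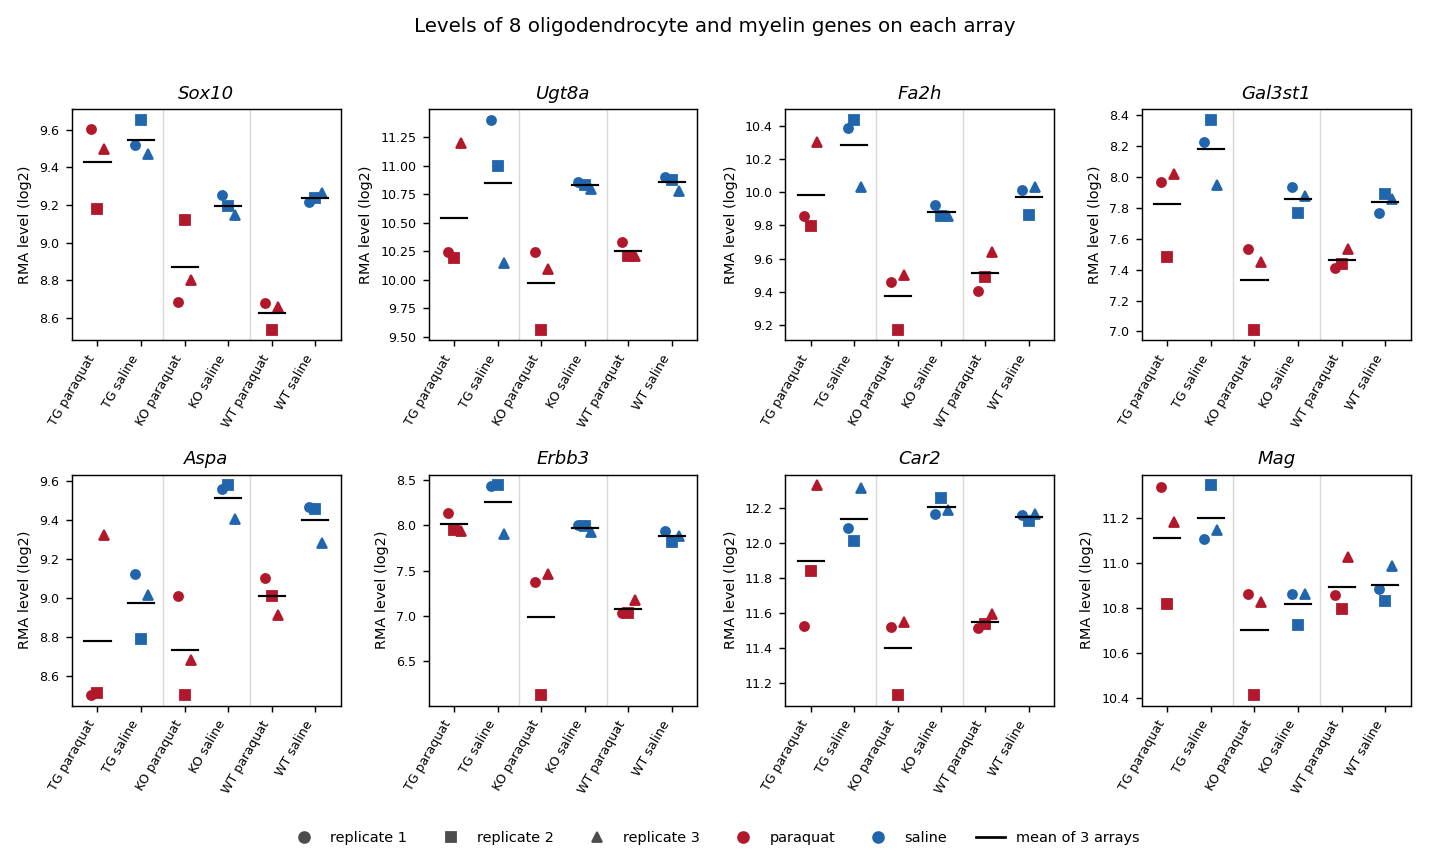
RMA level on the log2 scale (y axis, its own range in each panel, not starting at 0) of 8 genes on each of the 18 arrays, by group on the x axis, with paraquat left of saline; symbols give the replicate and lines the mean of 3 arrays. Sox10, the 4 lipid enzymes, Erbb3 and Car2 lay lower in all KO and WT paraquat arrays than in the saline arrays of the same genotype, while Mag overlapped.

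Among the transcription factors of the oligodendrocyte lineage, Sox10 had 8.68, 9.12 and 8.80 in KO paraquat against 9.25, 9.19 and 9.14 in KO saline. In WT it had 8.68, 8.54 and 8.65 in paraquat against 9.22, 9.24 and 9.26 in saline. No paraquat array reached a saline array in either genotype. The log2 fold change was -0.33 ± 0.12 (SE), adjusted p = 0.17 in KO and -0.62 ± 0.12 (SE), adjusted p = 0.0069 in WT. Without replicate 2 of KO paraquat, the highest of its group, the KO value was -0.45 (adjusted p = 0.035). Its other 2 probe sets had log2 fold changes of -0.23 and -0.31 over the 3 genotypes. Olig2, the basic helix-loop-helix factor that acts with Sox10, had 7.43, 6.22 and 7.20 in KO paraquat against 7.69, 7.58 and 7.63 in KO saline, and 7.33, 7.66 and 7.76 in WT paraquat against 7.80, 7.83 and 7.91 in WT saline. Replicate 2 of KO paraquat was the lowest of the 18 arrays, and the log2 fold change of Olig2 in KO was -0.68 with it and -0.32 without it (adjusted p = 0.094 and 0.38). Olig1, the paralogue of Olig2, did not follow it: it had 11.61, 11.64 and 11.66 in WT paraquat against 11.38, 11.42 and 11.43 in WT saline, higher on every array (0.23 ± 0.12 (SE), adjusted p = 0.62). Myrf, which drives the myelin genes late in maturation, had 9.62, 9.99 and 10.01 in WT paraquat against 9.51, 9.54 and 9.83 in WT saline, with overlap (0.25 ± 0.13 (SE), adjusted p = 0.55). Nkx6-2, a homeobox factor that lay under the filter and was not tested, had 5.36, 5.41 and 5.43 in WT paraquat against 5.80, 5.77 and 5.80 in WT saline.

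The 4 lipid enzymes lay lower on every paraquat array than on every saline array in both KO and WT, and 1 of them, Aspa, passed the test, in KO. Ugt8a, which adds galactose to ceramide to make the main myelin galactolipid, had 10.25, 9.56 and 10.10 in KO paraquat against 10.86, 10.83 and 10.80 in KO saline. In WT it had 10.33, 10.21 and 10.21 in paraquat against 10.90, 10.88 and 10.78 in saline. The groups did not overlap in either genotype, but the spread that the model shares over all arrays was wide, and the log2 fold changes were -0.86 ± 0.26 (SE), adjusted p = 0.087 in KO and -0.60 ± 0.26 (SE), adjusted p = 0.38 in WT. Its second probe set gave -0.50 over the 3 genotypes, against -0.59 for the first. Fa2h, which hydroxylates the fatty acid of these lipids, had 9.46, 9.17 and 9.501 in KO paraquat against 9.92, 9.86 and 9.86 in KO saline, and 9.41, 9.49 and 9.64 in WT paraquat against 10.01, 9.86 and 10.03 in WT saline. Again no arrays overlapped (-0.50 ± 0.14 (SE), adjusted p = 0.059 in KO and -0.46 ± 0.14 (SE), adjusted p = 0.11 in WT). Gal3st1, which sulfates galactosylceramide to sulfatide, had 7.53, 7.01 and 7.45 in KO paraquat against 7.93, 7.76 and 7.88 in KO saline. In WT it had 7.41, 7.44 and 7.53 in paraquat against 7.76, 7.89 and 7.86 in saline (-0.53 ± 0.15 (SE), adjusted p = 0.067 in KO and -0.38 ± 0.15 (SE), adjusted p = 0.32 in WT). Aspa, the aspartoacylase that frees acetate for lipid synthesis, had 9.01, 8.503 and 8.68 in KO paraquat against 9.56, 9.58 and 9.40 in KO saline, and 9.10, 9.01 and 8.91 in WT paraquat against 9.47, 9.45 and 9.28 in WT saline. It passed the test in KO (-0.78 ± 0.17 (SE), adjusted p = 0.018) and not in WT (-0.39 ± 0.17 (SE), adjusted p = 0.42), and without replicate 2 of KO paraquat the KO value was -0.66 (adjusted p = 0.084). The mean of the 4 enzymes differed from the WT saline mean by -0.45, -0.95 and -0.58 log2 units on the KO paraquat arrays and by -0.45, -0.48 and -0.44 on the WT paraquat arrays.

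Of the 11 structural proteins, Pllp and Gjb1 lay lower on every paraquat array in both genotypes. Mog and Cldn11 did so in KO but not in WT, without passing the test. Pllp, plasmolipin, a membrane protein of myelin, had 9.13, 8.76 and 8.86 in KO paraquat against 9.54, 9.52 and 9.59 in KO saline, and 9.18, 9.22 and 9.36 in WT paraquat against 9.60, 9.47 and 9.72 in WT saline. The arrays did not overlap, and the log2 fold change was -0.64 ± 0.15 (SE), adjusted p = 0.024 in KO and -0.34 ± 0.15 (SE), adjusted p = 0.41 in WT. Without replicate 2 of KO paraquat the KO value of Pllp was -0.56 (adjusted p = 0.091). Gjb1, a gap-junction connexin of oligodendrocytes, had 8.29, 8.01 and 8.34 in KO paraquat against 8.62, 8.56 and 8.65 in KO saline, and 8.23, 8.18 and 8.29 in WT paraquat against 8.59, 8.51 and 8.70 in WT saline. It too lay lower on every paraquat array (-0.40 ± 0.12 (SE), adjusted p = 0.091 in KO and -0.37 ± 0.12 (SE), adjusted p = 0.17 in WT), and so did its second probe set in the mean of the genotypes (-0.37). Mbp had 14.21, 14.26 and 14.35 in WT paraquat against 14.34, 14.37 and 14.30 in WT saline, with overlap, and a log2 fold change of -0.07 (95% interval -0.26 to 0.13). This probe set lies near the highest value of the arrays, 14.91, and whether that compressed its change was not tested. A dimmer probe set of Mbp (mean level 8.48) gave 0.01 over the 3 genotypes, and another (8.01) gave -0.19. Mag, the myelin-associated glycoprotein, had 10.86, 10.79 and 11.02 in WT paraquat against 10.88, 10.83 and 10.99 in WT saline, and its interval ran from -0.29 to 0.27. Mobp and Cnp had WT intervals of -0.30 to 0.36 and -0.25 to 0.22. Pmp22 was higher on every WT paraquat array, at 10.002, 9.97 and 10.12 against 9.82, 9.83 and 9.88 in WT saline, without passing the test (0.18 ± 0.11 (SE), adjusted p = 0.67). Mal was also higher on each, at 11.29, 11.41 and 11.45 against 11.27, 11.24 and 11.20 in WT saline, and did not pass. In KO all 11 fold changes were negative, with a median of -0.14, where the median of all genes was -0.09. Without replicate 2 of KO paraquat 7 of 11 were negative, with a median of -0.02, and Mal (0.13), Pmp22 (0.08), Mobp (0.03) and Mag (0.03) were positive.

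Among the membrane receptors, Erbb3, the neuregulin receptor of oligodendrocytes and Schwann cells, had 7.37, 6.13 and 7.46 in KO paraquat against 8.005, 7.99 and 7.93 in KO saline. In WT it had 7.03, 7.03 and 7.18 in paraquat against 7.94, 7.81 and 7.88 in saline. All 6 paraquat arrays lay below all 6 saline arrays of these genotypes. Its log2 fold changes were -0.98 ± 0.23 (SE), adjusted p = 0.024 in KO and -0.80 ± 0.23 (SE), adjusted p = 0.088 in WT, and without replicate 2 of KO paraquat they were -0.56 in KO (adjusted p = 0.03) and -0.80 in WT (adjusted p = 0.0004). A second probe set of Erbb3, under the filter, moved the other way in KO (0.42), and the mean of both gave -0.28. The KO call of Erbb3 did not hold with that mean or with only the KO arrays in the fit. It was also lost when any 1 of the KO saline arrays was left out. Gpr37, a G protein-coupled receptor of oligodendrocytes, had 9.83, 9.33 and 9.76 in KO paraquat against 10.22, 10.26 and 10.21 in KO saline, and 9.75, 9.93 and 10.07 in WT paraquat against 10.32, 10.22 and 10.26 in WT saline. It passed the test in KO (-0.59 ± 0.13 (SE), adjusted p = 0.02) and not in WT (-0.36 ± 0.13 (SE), adjusted p = 0.28), and in KO it did not pass without replicate 2 of KO paraquat (-0.44, adjusted p = 0.071). Evi2a, a membrane protein gene, had 9.61, 9.03 and 9.60 in KO paraquat against 9.87, 9.96 and 9.94 in KO saline, and 9.60, 9.72 and 9.58 in WT paraquat against 9.95, 9.81 and 9.82 in WT saline. The arrays did not overlap, but neither contrast passed the test (-0.51 ± 0.14 (SE), adjusted p = 0.061 in KO and -0.23 ± 0.14 (SE), adjusted p = 0.72 in WT, and -0.32 in KO without replicate 2). Car2, the carbonic anhydrase of oligodendrocytes, was the only member to pass in both genotypes. It had 11.52, 11.13 and 11.55 in KO paraquat against 12.16, 12.25 and 12.19 in KO saline, and 11.52, 11.54 and 11.60 in WT paraquat against 12.16, 12.12 and 12.16 in WT saline, with no overlap. Its log2 fold change was -0.80 ± 0.15 (SE), adjusted p = 0.0061 in KO and -0.60 ± 0.15 (SE), adjusted p = 0.044 in WT, and -0.67 (adjusted p = 0.029) in KO without replicate 2. The WT call of Car2 did not hold when any 1 of the WT arrays was left out.

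Across the 28 members, the fold change in KO and that in WT, from separate arrays, had a correlation of 0.83, and of 0.90 without replicate 2 of KO paraquat. The difference between the genotypes in the response to paraquat was tested as an interaction, and 0 of 28 members passed it (0% of all genes, limma), with 0 members at an unadjusted p under 0.05. With all arrays the members that differed most, KO minus WT, were Olig2 (-0.42, 95% interval -1.04 to 0.20), Aspa (-0.39, -0.90 to 0.12) and Mog (-0.39, -0.97 to 0.20). Without replicate 2 of KO paraquat the values were -0.06 for Olig2, -0.27 for Aspa and -0.27 for Mog, Myrf differed most (-0.29), and the members' median was -0.03, against -0.18 with that array. Each interval given here held 0.

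In the TG cerebellum the members' fold changes were also mostly negative, 26 of 28, with a median of -0.17 against -0.03 over all genes, but none passed the test (0 of 28, 0% of all genes). At an unadjusted p under 0.05 there were 4 members. The TG paraquat arrays lay wholly below the TG saline arrays for 1 member, Mbp, against 2.51% of all genes. Ugt8a had 10.24, 10.19 and 11.20 in TG paraquat against 11.40, 10.996 and 10.15 in TG saline. Replicate 3 of TG paraquat was high and replicate 3 of TG saline low, so that the groups crossed. The log2 fold change of Ugt8a was -0.31 with all arrays and -0.63 without replicate 3 of TG paraquat, neither past the test (adjusted p = 1 in both). Aspa had 8.51, 8.52 and 9.32 in TG paraquat against 9.12, 8.79 and 9.02 in TG saline, where replicates 1 and 2 of paraquat lay below all saline arrays and replicate 3 above them, and log2 fold changes of -0.19 with and -0.47 without replicate 3. Fa2h had 9.86, 9.80 and 10.30 in TG paraquat against 10.39, 10.43 and 10.03 in TG saline, where replicates 1 and 2 of paraquat lay below all saline arrays (-0.30 ± 0.14 (SE), adjusted p = 1, and -0.46 without replicate 3). Car2 had 11.52, 11.84 and 12.33 in TG paraquat against 12.09, 12.01 and 12.31 in TG saline, again with only replicate 3 of paraquat at the saline level (-0.24 ± 0.15 (SE), adjusted p = 1, and -0.46 without it). With all arrays the changes of greatest size in TG were those of Mog, the myelin oligodendrocyte glycoprotein, with 9.24, 8.91 and 9.57 in TG paraquat against 10.03, 9.87 and 9.08 in TG saline (-0.42 ± 0.20 (SE), adjusted p = 1), of Gal3st1, with 7.96, 7.48 and 8.02 against 8.22, 8.37 and 7.95 (-0.36 ± 0.15 (SE), adjusted p = 1), and of Olig2, with 7.98, 7.73 and 7.87 against 8.23, 8.48 and 7.94 (-0.35 ± 0.21 (SE), adjusted p = 1). In each of these the groups overlapped. Without replicate 3 of TG paraquat the order was Ugt8a, Mog (-0.59) and Pllp (-0.52), with Gal3st1 at -0.45 and Olig2 at -0.36. Without replicate 3 of TG paraquat the members' median was -0.25, and still 0 members passed, against 0% of all genes lower.

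Of the 12 genes that fell over the mean, Gjb1 (-0.12) and Sox10 had the least negative values in TG. Sox10 had 9.61, 9.18 and 9.497 in TG paraquat against 9.52, 9.65 and 9.47 in TG saline (-0.12 ± 0.12 (SE), adjusted p = 1), and Erbb3 had 8.13, 7.95 and 7.94 against 8.43, 8.44 and 7.91 (-0.25 ± 0.23 (SE), adjusted p = 1). The difference in the response to paraquat, TG minus WT, was 0.49 for Sox10 (95% interval 0.14 to 0.85, adjusted p = 0.59) and 0.55 for Erbb3 (-0.13 to 1.22, adjusted p = 1). No member passed this test (0 of 28), against 0.18% of all genes, and 1 member, Sox10, had an unadjusted p under 0.05. The third of the members by size in this test was Mog (-0.42, -1.001 to 0.17). Without replicate 3 of TG paraquat the values were 0.46 for Sox10, 0.58 for Erbb3 and -0.58 for Mog.

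**Figure D2:**
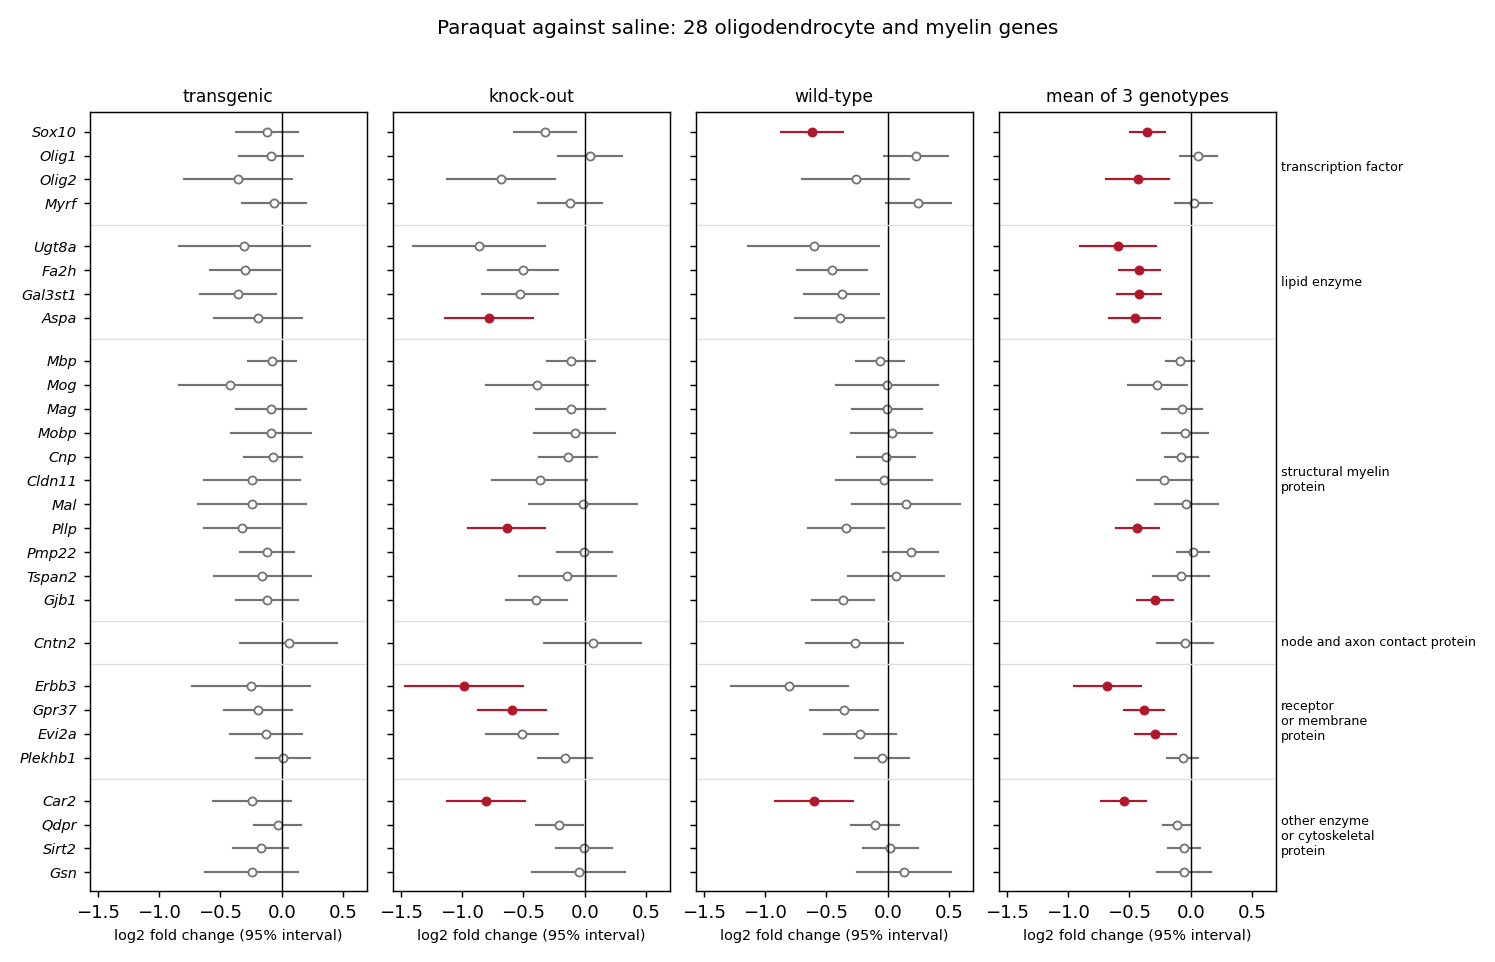
Log2 fold change of paraquat over saline (x axis) with its 95% interval for the 28 genes (y axis, grouped by role) in TG, KO and WT and as the mean of the 3 genotypes; filled red points passed at adjusted p under 0.05. The 4 lipid enzymes lie left of 0 in every panel, and 12 genes passed in the mean.

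Averaged over the 3 genotypes, which uses all 18 arrays, 12 of 28 members fell with paraquat and 0 rose, against 2.88% of all genes lower and 2.01% higher. By role, 4 of 4 lipid enzymes fell, 3 of 4 receptor and membrane proteins, 2 of 4 transcription factors, 2 of 11 structural proteins and 1 of the 4 remaining enzymes and cytoskeletal proteins. Cntn2, a contactin, did not pass. Erbb3 fell most (-0.68 ± 0.13 (SE), adjusted p = 0.0036), which is a level 1.60-fold lower. Ugt8a (-0.59 ± 0.15 (SE), adjusted p = 0.022) and Car2 (-0.55 ± 0.09 (SE), adjusted p = 0.00059) came next, at levels 1.51-fold and 1.46-fold lower. Aspa fell by 0.46, Pllp by 0.43, Gal3st1 by 0.42 and Fa2h by 0.42 on the log2 scale, with adjusted p of 0.0089, 0.0038, 0.0046 and 0.0025. Sox10 fell by 0.35, Gpr37 by 0.38 and Gjb1 by 0.29, with adjusted p of 0.0036, 0.0046 and 0.016. Olig2 (-0.43 ± 0.12 (SE), adjusted p = 0.043) and Evi2a (-0.29 ± 0.08 (SE), adjusted p = 0.043) passed by little, and their calls depended on the array set. The call of Ugt8a was also lost without replicate 1 or without replicate 2 of TG paraquat, at an adjusted p of up to 0.053. Of the 16 members that did not pass, Mog (-0.27 ± 0.11 (SE), adjusted p = 0.2) and Cldn11 (-0.22 ± 0.11 (SE), adjusted p = 0.3) had the most negative values and Olig1 (0.06) the highest, and the intervals of Mbp (-0.20 to 0.02), Cnp (-0.21 to 0.06) and Mag (-0.23 to 0.09) held 0. With both doubtful arrays left out, 12 members fell, the 12 named here, against 4.05% of all genes lower. Of the other probe sets of the genes that fell, 4 of 5 had the same sign, the exception being the dim one of Erbb3.

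**Figure D3:**
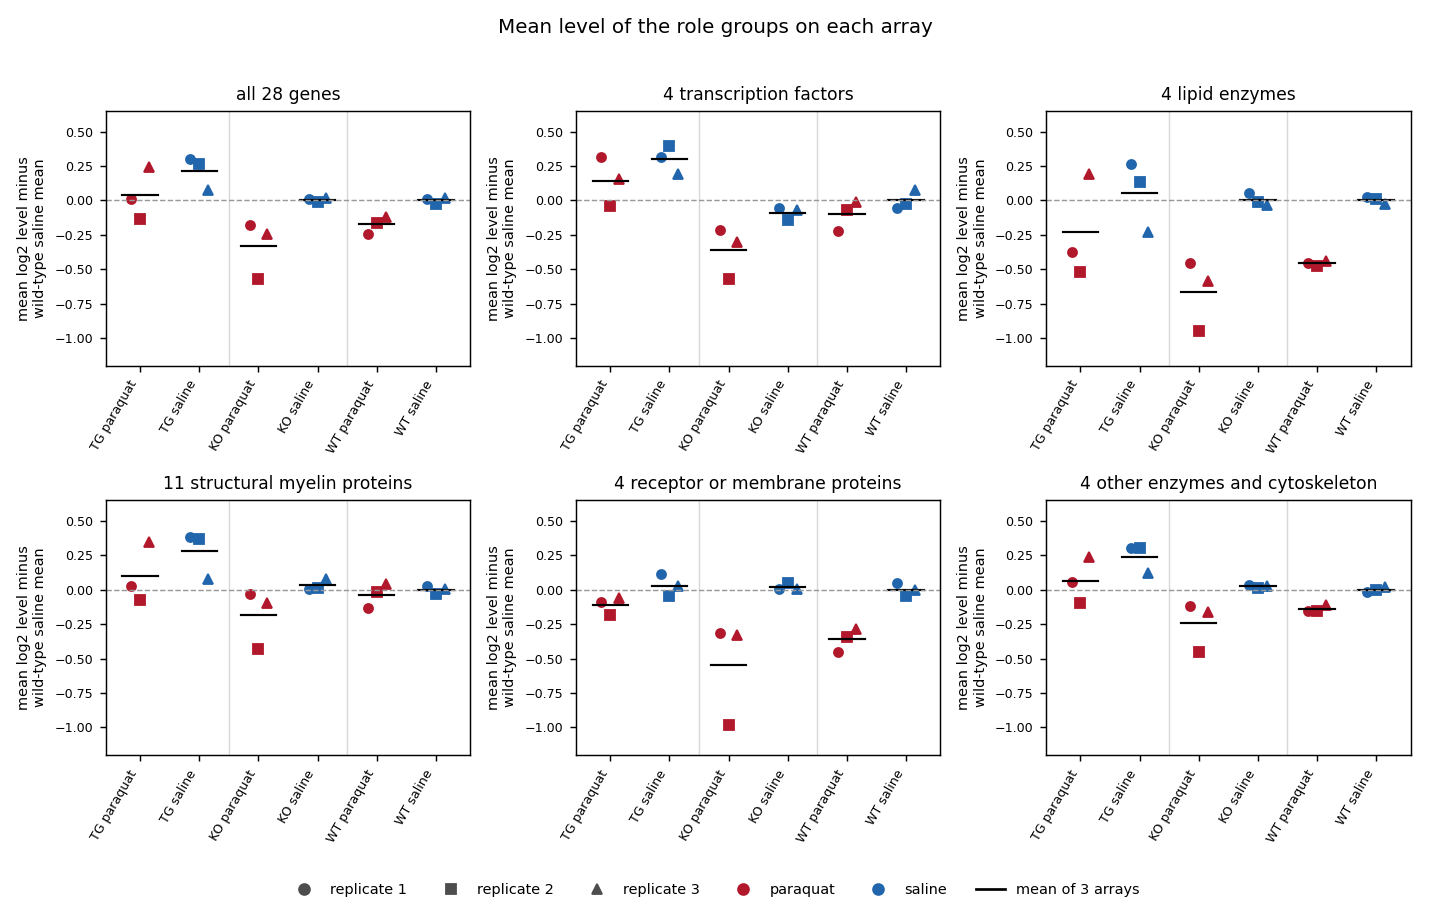
Mean log2 level of all 28 genes and of 5 role groups on each array minus the WT saline mean (y axis), by group on the x axis with paraquat left of saline; symbols give the replicate and lines the mean of 3 arrays. The lipid enzymes of WT paraquat lie between -0.48 and -0.44, while the structural proteins of WT paraquat lie between -0.14 and 0.04, and replicate 2 of KO paraquat is the lowest array in each panel.

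Genes of related function that were not members were counted by list. Over the mean of the genotypes 2.88% of all genes fell and 2.01% rose. Of 22 further oligodendrocyte genes tested, 6 fell and 1 rose over the mean of the genotypes, with a median of -0.11 against -0.03 over all genes. Those that fell included Cdc42ep1, an effector of the GTPase Cdc42 (-0.58, adjusted p = 0.00013), Adamts4, a metalloprotease (-0.67, adjusted p = 0.0015) and Nkx2-2, a transcription factor of the lineage (-0.43, adjusted p = 0.0018). The one that rose was Apod (0.44, adjusted p = 0.0016), which was called in KO (1.16), where its level was far below that of WT, and not in TG or WT. Of 12 precursor genes 1 fell, Id4 (-0.28, adjusted p = 0.044). Of 26 further genes of sphingolipid, fatty acid and cholesterol synthesis 2 fell, Elovl6 (-0.37, adjusted p = 0.021) and Dhcr7 (-0.27, adjusted p = 0.031), and of 16 genes of the node and its flanks 0 passed, with 3 at an unadjusted p under 0.05 (limma). Of 13 genes of growth factors and signals to oligodendrocytes 4 fell, led by the chemokine Cxcl12 (-0.96, adjusted p = 5e-07), then Fgfr2 (-0.52), Notch1 (-0.38) and Tgfb2 (-0.32).

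Markers of other cells were counted in the same way, against 2.88% of all genes lower and 2.01% higher. Of 7 endothelial genes 3 fell (Tek, Cldn5 and Flt1, -0.70, -0.42 and -0.32), of 11 microglial genes 2 (Cx3cr1 and P2ry12, -0.61 and -0.44), of 16 astrocyte genes 2, with 1 higher (Sox9 and Slc4a4 lower, -0.37 and -0.27, and Gjb6 higher, 0.57), and of 11 granule-neuron genes 2 (Zic1 and Neurod1). None of 11 Purkinje-neuron or 10 neurofilament and axon genes passed (0 of each), with 1 and 3 at an unadjusted p under 0.05. The mean level of the endothelial list was 7.74 to 8.06 in KO paraquat against 8.21 to 8.33 in KO saline, and 7.95 to 8.01 in WT paraquat against 8.17 to 8.28 in WT saline. That of the microglial list was 7.81 to 8.03 in KO paraquat against 8.12 to 8.17 in KO saline, and 8.06 to 8.07 in WT paraquat against 8.13 to 8.20 in WT saline. Their part in the members' result was not tested. Of the Schwann-cell list 2 genes were tested and 0 passed, with 0 at an unadjusted p under 0.05.

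KO against WT was compared within each treatment to ask what the loss of ApoD does to these genes. Under saline 0 of 28 members passed, against 0.024% of all genes, and 0 had an unadjusted p under 0.05. The members' mean was 10.35, 10.33 and 10.36 in KO saline against 10.35, 10.32 and 10.35 in WT saline, and the groups overlapped. Olig2 had 7.69, 7.58 and 7.63 in KO saline against 7.80, 7.83 and 7.91 in WT saline. The members that differed most were Olig2 (-0.21, 95% interval -0.65 to 0.22), Tspan2, a myelin tetraspanin (0.19, -0.21 to 0.58), and Cldn11, the claudin of myelin tight junctions (0.13, -0.26 to 0.52). Levels of Tspan2 were 10.51, 10.51 and 10.56 in KO saline against 10.39, 10.35 and 10.29 in WT saline, which did not overlap, and levels of Cldn11 were 10.09, 10.19 and 10.21 against 10.21, 9.94 and 9.95. Without overlap, 2 of 28 members lay higher in KO saline (Tspan2 and Car2) and 2 lower (Olig1 and Olig2). Over all genes this held for 10.3% in each direction. Mbp has 8 probe sets, and a dimmer one (mean level 8.01), not the one used here, had log2 fold changes of -1.19 under saline and -0.999 under paraquat, KO over WT, while the other 7 lay between -0.06 and 0.09. Under paraquat 0 of 28 passed, against 0.012% of all genes, with 4 at an unadjusted p under 0.05. Here 25 of 28 values were negative, but the median of all genes was -0.12 and that of the members -0.17, and without replicate 2 of KO paraquat these were -0.01 and -0.03. With all arrays Olig2 differed most (-0.64 ± 0.21 (SE), adjusted p = 0.37), then Myrf, with 9.62, 9.37 and 9.57 in KO paraquat against 9.62, 9.99 and 10.01 in WT paraquat (-0.36 ± 0.13 (SE), adjusted p = 0.37), and Mog, with 9.09, 8.71 and 9.04 against 9.05, 9.40 and 9.47 (-0.36 ± 0.20 (SE), adjusted p = 0.41). Without replicate 2 of KO paraquat these values were -0.27 for Olig2, -0.28 for Myrf and -0.24 for Mog, 18 of 28 values were negative, and Erbb3 differed most (0.34, adjusted p = 0.89), against -0.09 with that array.

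TG against WT was compared to ask what ApoD over-expressed in neurons does to these genes, and 21 of 28 fold changes were positive under each treatment. The members' mean was 10.64, 10.61 and 10.42 in TG saline against 10.35, 10.32 and 10.35 in WT saline, and 10.35, 10.20 and 10.58 in TG paraquat against 10.10, 10.17 and 10.22 in WT paraquat. The saline groups did not overlap, the paraquat groups did. Under saline 2 of 28 members were higher and 0 lower, against 1.98% of all genes higher and 4.38% lower. The TG arrays lay wholly above WT for 15 members, against 14.5% of all genes, and wholly below for 2, Aspa and Evi2a, against 18.2%. The median was 0.30 for the members and -0.01 for all genes. Gjb1 had 8.94, 9.06 and 9.23 in TG saline against 8.59, 8.51 and 8.70 in WT saline (0.48 ± 0.12 (SE), adjusted p = 0.024). Sirt2, a deacetylase abundant in myelin, had 10.99, 10.90 and 10.85 in TG saline against 10.53, 10.45 and 10.52 in WT saline (0.41 ± 0.11 (SE), adjusted p = 0.029). For both genes every TG array was above every WT array. Neither call held without replicate 2 or 3 of TG saline or replicate 1 or 2 of WT saline, and that of Sirt2 was also lost without replicate 3 of WT saline. Gsn, gelsolin, had 10.53, 10.86 and 9.92 in TG saline against 9.80, 9.85 and 9.91 in WT saline (0.58 ± 0.18 (SE), adjusted p = 0.061), and Tspan2 had 10.99, 10.99 and 10.54 against 10.39, 10.35 and 10.29 (0.50 ± 0.19 (SE), adjusted p = 0.11). Aspa went the other way, with 9.12, 8.79 and 9.02 in TG saline against 9.47, 9.45 and 9.28 in WT saline (-0.43 ± 0.17 (SE), adjusted p = 0.14). With both doubtful arrays left out, 13 members were higher under saline, against 8.93% of all genes, and Aspa lower.

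Under paraquat 5 of 28 members were higher in TG and 0 lower, against 4.64% of all genes higher and 14.3% lower. The TG arrays lay wholly above WT for 6 members, against 14.4% of all genes, and wholly below for 1, Pmp22, against 27.6%. Sox10 had 9.61, 9.18 and 9.497 in TG paraquat against 8.68, 8.54 and 8.65 in WT paraquat (0.80 ± 0.12 (SE), adjusted p = 0.00029). Erbb3 had 8.13, 7.95 and 7.94 in TG paraquat against 7.03, 7.03 and 7.18 in WT paraquat (0.93 ± 0.23 (SE), adjusted p = 0.0086). Gjb1 had 8.85, 8.80 and 9.22 in TG paraquat against 8.23, 8.18 and 8.29 in WT paraquat (0.72 ± 0.12 (SE), adjusted p = 0.00069), and Fa2h had 9.86, 9.80 and 10.30 against 9.41, 9.49 and 9.64 (0.47 ± 0.14 (SE), adjusted p = 0.02). Cntn2 had 6.88, 6.85 and 7.34 in TG paraquat against 6.34, 6.29 and 6.15 in WT paraquat (0.76 ± 0.19 (SE), adjusted p = 0.0089). It is a dim gene: the WT paraquat arrays had medians of 7.12 to 7.15. With the filter set at the 60th percentile Cntn2 was not tested. On all 5 genes no array of the groups overlapped. Without replicate 3 of TG paraquat the values were 0.77 for Sox10, 0.96 for Erbb3, 0.59 for Gjb1, 0.61 for Cntn2 and 0.32 for Fa2h, and all but Fa2h passed (adjusted p of Fa2h = 0.11). The median over the members was 0.11 without that array, against 0.22 with it. Aspa was then lower in TG (-0.50, adjusted p = 0.021). With both doubtful arrays left out 6 members were higher, against 11% of all genes, and 2, Aspa and Pmp22, lower.

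**Figure D4:**
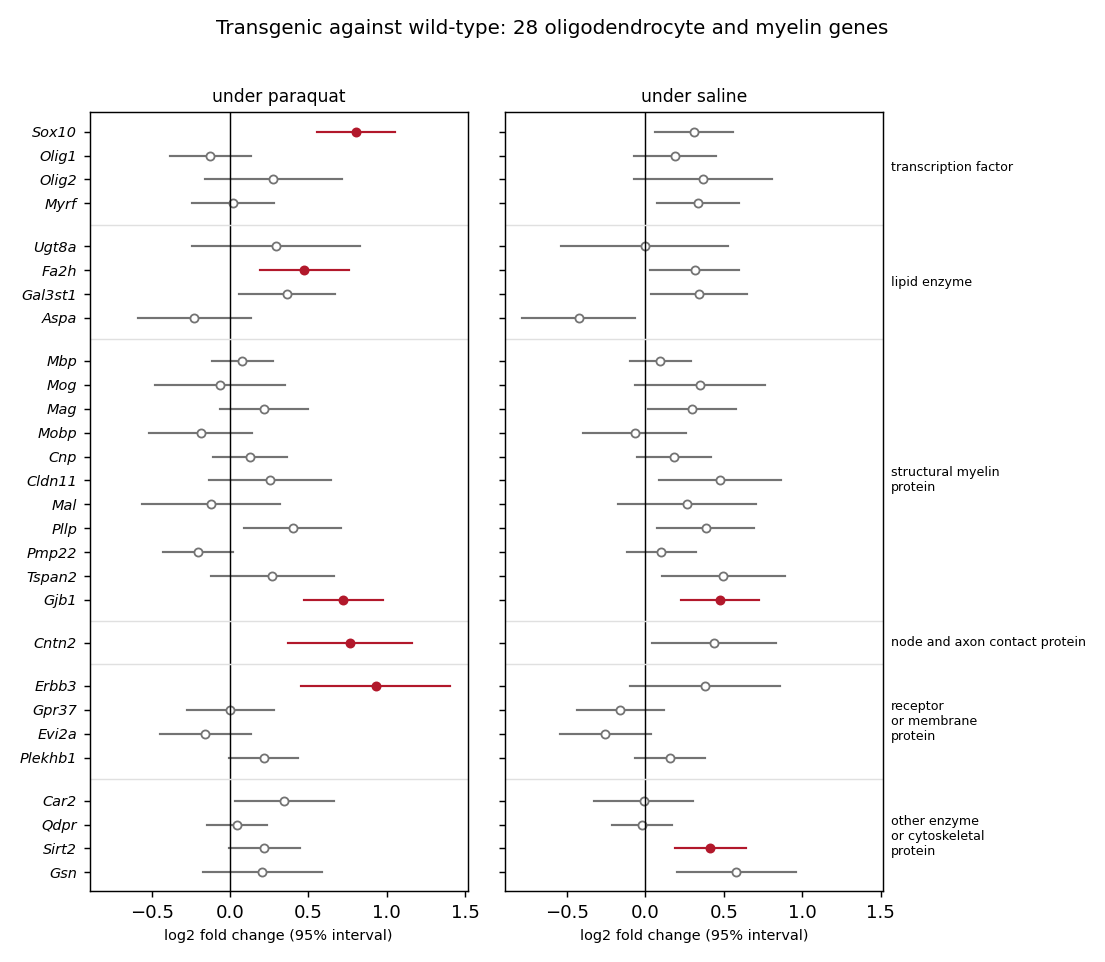
Log2 fold change of TG over WT (x axis) with its 95% interval for the 28 genes (y axis, grouped by role), under paraquat on the left and under saline on the right; filled red points passed at adjusted p under 0.05. Gjb1 passed under both treatments, and Aspa is the lipid enzyme left of 0 in both.

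Several measures that are not oligodendrocyte genes also set the TG arrays apart. The mean of the choroid plexus genes was 7.44, 7.85 and 6.53 in TG saline against 8.87, 8.74 and 8.98 in WT saline, and 8.58, 8.21 and 7.35 in TG paraquat against 8.86, 8.75 and 8.74 in WT paraquat. Under saline all 5 of these genes were lower in TG (median -1.88). The 3′ minus 5′ difference of a labelled control transcript, pyruvate carboxylase, was 1.82 and 1.95 on the third TG arrays of saline and paraquat, against 2.25 to 3.16 elsewhere. The spread between pools was also larger: the median SD over the members was 0.24 in TG paraquat and 0.19 in TG saline, against 0.09 in WT paraquat and 0.06 in WT saline, and it was 0.23 in KO paraquat against 0.05 in KO saline. Over all genes the median SD was 0.14 in TG paraquat and 0.16 in TG saline, against 0.10 in WT paraquat and 0.07 in WT saline. In KO the all-gene value was 0.24 in paraquat and 0.06 in saline. The part of these measures in the TG result was not tested.

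Over the 18 arrays, most members varied together. The correlation of a member with the mean of the others was highest for Fa2h (0.96) and Gal3st1 (0.96) and lowest for Pmp22 (0.14), Cntn2 (0.21) and Mobp (0.21). Over 17 arrays, without replicate 2 of KO paraquat, Fa2h (0.97) and Gal3st1 (0.94) were again highest, while Pmp22 was at -0.22, Evi2a at -0.05, Mobp at 0.05 and Cntn2 at 0.59. Among genes outside the list, Sqle, the squalene epoxidase of cholesterol synthesis, followed the members' mean most closely (r = 0.96 over 18 arrays and 0.93 over 17 without replicate 2 of KO paraquat), then Syt11 (0.92), Trib2 (0.91), Fez1 (0.91), Tmeff2 (0.91), Tuba4a (0.91), Lmo2 (0.91), Nab2 (0.91), Cd93 (0.90) and Pde8a (0.90). Without that array the order changed to Sqle, Kdr, Fgfrl1, Adam19, Tnc, Syt11, Padi2, Lrrc3b, Cd93 and Rap2a, with r of 0.86 to 0.93. These are descriptions over arrays that share normalisation and the 6 groups.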

How the data were processed

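The authors deposited log2 values of 22690 probe sets for each array. They were made with RMA, a method of background correction, normalisation and summary, per the submitters' processing notes, with no version given. The log2 scale was read from the deposited values, which ran from 3.13 to 14.9. No other step of the authors' processing is given in the sources used here. By platform annotation 20380 probe sets carried 1 symbol, 691 more than 1, 1555 no symbol, and 64 were controls. A gene was represented by the probe set with the highest mean and kept where it reached the array's 40th percentile on at least 3 arrays. limma 3.58.1 in R 4.3.3 fitted 6 group means over 18 arrays with 12 residual degrees of freedom, and adjusted p-values are Benjamini-Hochberg over 8320 genes within each of 10 comparisons, two-sided, called under 0.05. Precision is limited by array number. For paraquat in WT the median 95% half-width of a fold change over all genes tested was 0.27.

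Arrays of the same number were checked for pairing. Deviations of TG saline and TG paraquat from their group means correlated at 0.16, 0.13 and 0.42 for numbers 1, 2 and 3. In KO they correlated at -0.09, -0.28 and -0.12 and in WT at 0.09, 0.15 and 0.34. The main fit did not pair arrays by number in any genotype. The number entered only as the replicate block, which was an alternative. Alternatives were a second quantile normalisation, median centring, other filters, all probe sets of a gene, array weights, an intensity trend, only the arrays compared, the replicate block and each array left out. Leaving out both doubtful arrays was chosen after seeing the data. Named in full are members called in any comparison and the 3 with the largest change in each, up to 4 called genes of each other list by smallest p, and the 10 genes most like the members' mean. Members and lists were chosen with earlier results of these data known.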

Additional observations from a re-analysis of the deposited data

How the results depend on the processing

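Counts here are of members called in either direction. The count over the mean of the genotypes was 12, all lower. It was between 9 and 12 with 1 array left out and between 10 and 18 under the other settings. Calls over all genes were 407, with 261 to 657 with 1 array left out and 293 to 2263 under the other settings. No member that was called or among the 3 largest changes of a comparison turned its direction in that comparison. Over all 28 members, 7 turned without replicate 2 of KO paraquat for paraquat in KO (Mag, Mobp, Mal, Pmp22, Sirt2 and Gsn to positive, Cntn2 to -0.20), 7 for KO against WT under paraquat, 8 for the difference in response, KO minus WT, and 1 for the mean of the genotypes. Without replicate 3 of TG paraquat 1 turned for paraquat in TG, 3 for TG against WT under paraquat, 4 for the difference in response, TG minus WT, and 1 for the mean. Of 26 called member and comparison pairs 15 kept the call under every setting in which the gene was tested. Among these, Cntn2 in TG against WT under paraquat was not tested with the stricter filter. In TG, the count of 0 for paraquat was 16 with array weights and 0 in every fit with 1 array left out. Calls over all genes were 0, with 0 to 6 with 1 array left out and up to 409 under the other settings. In KO, the count of 5 was 15 with array weights, 1 with only the arrays compared, and 1 to 10 with 1 array left out. In WT, the count of 2 was 1 with no filter and 13 with array weights, of which 11 were lower and 2 higher. It was 7 without both doubtful arrays, 11 with only the arrays compared, and 1 to 4 with 1 array left out. TG against WT under saline gave 2, which became 5 with quantile normalisation, 5 with the mean of all probe sets and 21 with array weights. It was 14 without both doubtful arrays and 0 to 8 with 1 array left out. The 14 were 13 higher and 1 lower, against 8.93% and 13.1% of all genes. Calls over all genes were 529, with 108 to 1564 with 1 array left out and up to 4112 under the other settings. TG against WT under paraquat gave 5, which became 9 with quantile normalisation and 11 with array weights. It was 8 without both doubtful arrays and 4 to 8 with 1 array left out. The 8 without both arrays were 6 higher and 2 lower, against 11% and 20.1% of all genes. Calls over all genes were 1578, with 828 to 2823 with 1 array left out and up to 4129 under the other settings. The difference in response, TG minus WT, gave 9 with array weights in place of 0. Calls over all genes for it were 15, with 4 to 34 with 1 array left out and up to 687 under the other settings. The cause of these shifts was not tested; fewer arrays in a fit also leave fewer degrees of freedom. With the replicate block the counts were 12 for the mean of the genotypes, 0 in TG, 5 in KO, 2 in WT, 2 for TG against WT under saline and 6 under paraquat, all within 1.5 times of the counts without it. The WT call of Car2 did not hold in 12 of 28 alternatives. Over all genes, array weights raised the calls for paraquat to 2173 in KO, against 188, and to 1059 in WT, against 166, and with both doubtful arrays left out those over the mean of the genotypes were 766, against 407.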

Other observations

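The oligodendrocyte transcription factor Nkx6-2 lay under the filter on dim probe sets, with levels of 5.62, 5.70 and 5.72 in KO paraquat against 5.69, 5.77 and 5.94 in KO saline and 5.64, 5.82 and 5.84 in TG paraquat against 6.001, 5.78 and 5.78 in TG saline. Among the precursor genes, C1ql1, a secreted complement-like protein, was higher in TG under saline (0.73, adjusted p = 0.0041) and under paraquat (0.90, adjusted p = 0.00022). Pdgfra, the growth factor receptor of precursors, had 8.35, 8.02 and 8.29 in TG paraquat against 8.64, 8.91 and 8.63 in WT paraquat (-0.51, adjusted p = 0.008). Id2 (-0.69) and Vcan (-0.57) were also lower in TG under paraquat, while Cspg4 (0.56, adjusted p = 0.019) and Id4 (0.41) were higher. In all, 3 of 12 precursor genes were higher and 3 lower, against 4.64% of all genes higher and 14.3% lower. At the juxtaparanode the potassium channel Kcna2 was higher in TG under saline (0.69, adjusted p = 0.031) and under paraquat (0.99, adjusted p = 0.0014). It was the 1 higher of 16 genes of the node and its flanks under paraquat, and 2 were lower, Vcan and Ank3 (-0.39). Lss, the lanosterol synthase, was lower in TG under paraquat (-1.002, adjusted p = 0.00087) and Fads2, a fatty acid desaturase, higher (0.49, adjusted p = 0.035). Of the astrocyte genes, Gfap was higher in TG under both treatments (0.67 and 0.62 under saline and paraquat, adjusted p = 0.016 and 0.0095). All p-values are limma's over all genes.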
